A study of Mus musculus with 11 samples.

Results

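The genes described here encode 9 enzymes that make or clear retinoic acid: the retinol and retinaldehyde dehydrogenases and reductases Rdh10, Rdh11 and Dhrs3, the retinaldehyde dehydrogenases Aldh1a1, Aldh1a2 and Aldh1a3, and the retinoic acid hydroxylases Cyp26a1, Cyp26b1 and Cyp26c1. They were taken by symbol from the array annotation, keeping probe sets annotated to a single gene. Each of the 9 was read by 1 probe set, out of 19938 genes named in this way, and a second probe set that Rdh11 shares in the annotation with Pwwp3a was left out. Affymetrix Mouse Gene 1.0 ST arrays were used on the nucleus accumbens, the ventral striatum, and a level here is the log2 value that robust multi-array analysis (RMA) gave a probe set. The 2 groups were 6 wild-type (WT) male mice and 5 RARβ-null mutant male littermates aged 4 to 5 months, called Rarb-null below, which lack retinoic acid receptor beta. Their parents were heterozygous and of mixed background (C57BL/6J and 129SvEms/j). None of the 11 mice had been tested in behaviour, and each gave 1 array from punches of both sides, enriched in the accumbens shell. The labels name no cell type or time to which the loss of the receptor would be limited, and which part of the gene the mutation removes is not stated in them.

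Retinoic acid is made from retinol (vitamin A) in 2 oxidation steps. Retinol dehydrogenases such as RDH10 convert retinol to retinaldehyde in a reversible step that retinaldehyde reductases such as DHRS3 run backwards, and the ALDH1A enzymes then oxidise retinaldehyde irreversibly to retinoic acid. The CYP26 enzymes hydroxylate retinoic acid and so begin its removal. The acid acts through nuclear receptors (RAR with RXR) that bind paired copies of a short DNA half-site, and several of the enzyme genes are themselves known targets of retinoic acid, with Cyp26a1 and Dhrs3 as textbook examples of feedback. In the adult brain the striatum is one of the regions where retinoic acid receptors, RARβ among them, are strongly expressed.

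The receptors' best known site is the DR5 element, a direct repeat of the half-site with 5 bases between the copies. RefSeq promoter windows (GRCm38.p6) of 250 bases before to 50 bases after a transcript start were used for 7 of the 9 members, with 11 windows in all; Rdh10 and Aldh1a3 had none. The half-sites searched were AGGTCA as the consensus, with AGTTCA as a common variant, and beside these GGGTCA as a further form, and finally GGTTCA as the last form. Both strands were read, with copies spaced by 1, 2 or 5 bases; the spacings are separate searches, and 1 window can hold more than 1 kind. Among the members a match was found in the single window of Cyp26a1, and the deleted receptor's own gene, Rarb, held the same kind of element. Both are shown because they let a reader see the sequence through which retinoic acid is known to act on these genes, with the half-sites in capitals and the strand on which they read in this direction.
Rarb, chr14:16575506-16575535, minus strand: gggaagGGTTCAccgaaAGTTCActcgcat
Cyp26a1, chr19:37697769-37697798, minus strand: caaattAGTTCAcccaaAGTTCAtctttaa
The Rarb element lies 53 to 37 bases before the transcript start that its window was drawn on, on the strand of the gene, and the Cyp26a1 element 32 to 16 bases before such a start, on the opposite strand. Both genes have a further RefSeq start upstream, so the elements lie inside the annotated gene spans, which are chr14:16430839-17082331 for Rarb and chr19:37697738-37701536 for Cyp26a1. Of all 32851 windows, 32 (0.0974%) held a DR5 match, 73 (0.222%) a match with spacing 1 and 88 (0.268%) a match with spacing 2. None of the 3 windows of Dhrs3, nor those of Rdh11, Aldh1a1, Aldh1a2, Cyp26b1 and Cyp26c1, held these letters, which says nothing of sites outside the windows.

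Rarb itself served as the check of the labels, since the sources give the 2 group sizes in both orders. Its level was 11.70 to 11.81 in the WT arrays and 9.72 to 10.01 in the Rarb-null arrays, so each null array was under each WT array (difference -1.86, SE 0.047, limma Benjamini-Hochberg adjusted p = 4.44e-11). Differences throughout are Rarb-null minus WT on the log2 scale, and SE is the standard error that limma, a linear model fitted to all genes together, gives. Of 11963 genes tested, 2341 (19.6%) passed an adjusted p of 0.05, 905 higher (7.56%) and 1436 lower (12%), and the genotypes did not overlap for 11.2% of genes. With each array centred on its median the split was 1677 higher and 939 lower, a shift of 0.04 in the median difference. Of 15 markers of striatal projection neurons 13 were measured and tested. Their mean level was 11.76 to 11.86 in WT and 11.44 to 11.57 in Rarb-null arrays, and 10 fell. Rxrg, with the largest fall of the 13 (-0.90), is also counted among the retinoid receptors below. Cortical neuron markers (11 of 12 measured) averaged 8.32 to 8.87 in WT and 8.86 to 9.35 in Rarb-null arrays, and 5 of 10 tested rose and 0 fell. Astrocyte markers averaged 10.26 to 10.39 in WT and 10.18 to 10.24 in Rarb-null arrays, with no overlap, and of 10 tested 5 fell and 1 rose. Oligodendrocyte markers (11 of 12 measured) averaged 9.34 to 9.58 in WT and 9.15 to 9.39 in Rarb-null arrays, and 5 of 11 tested fell and 0 rose. Beyond the fits with a marker covariate given beside the genes, the part of these markers in the results was not tested.

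Rdh10 and Dhrs3, the dehydrogenase and the reductase that drive the retinol step in opposite directions, both fell in Rarb-null arrays, and by nearly the same amount. Rdh10 was lower by 0.56, a 1.48-fold reduction, and Dhrs3 by 0.52, a 1.44-fold reduction. No member rose among the 5 whose mean level passed the filter on dim genes (log2 6.99, the 40th percentile of all genes). The other 3 of these 5, Rdh11, Aldh1a1 and Cyp26b1, did not pass the test. The remaining 4, Aldh1a2, Aldh1a3, Cyp26a1 and Cyp26c1, lay under the filter, so their levels are described with the fit made without a filter. The members therefore gave 2 falls among 5 tested genes, where 12% of all tested genes fell. The same 2 of the 9 were the genes whose genotypes did not overlap, against 7.87% of all 19938 genes and 11.2% of tested ones.

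**Figure D1:**
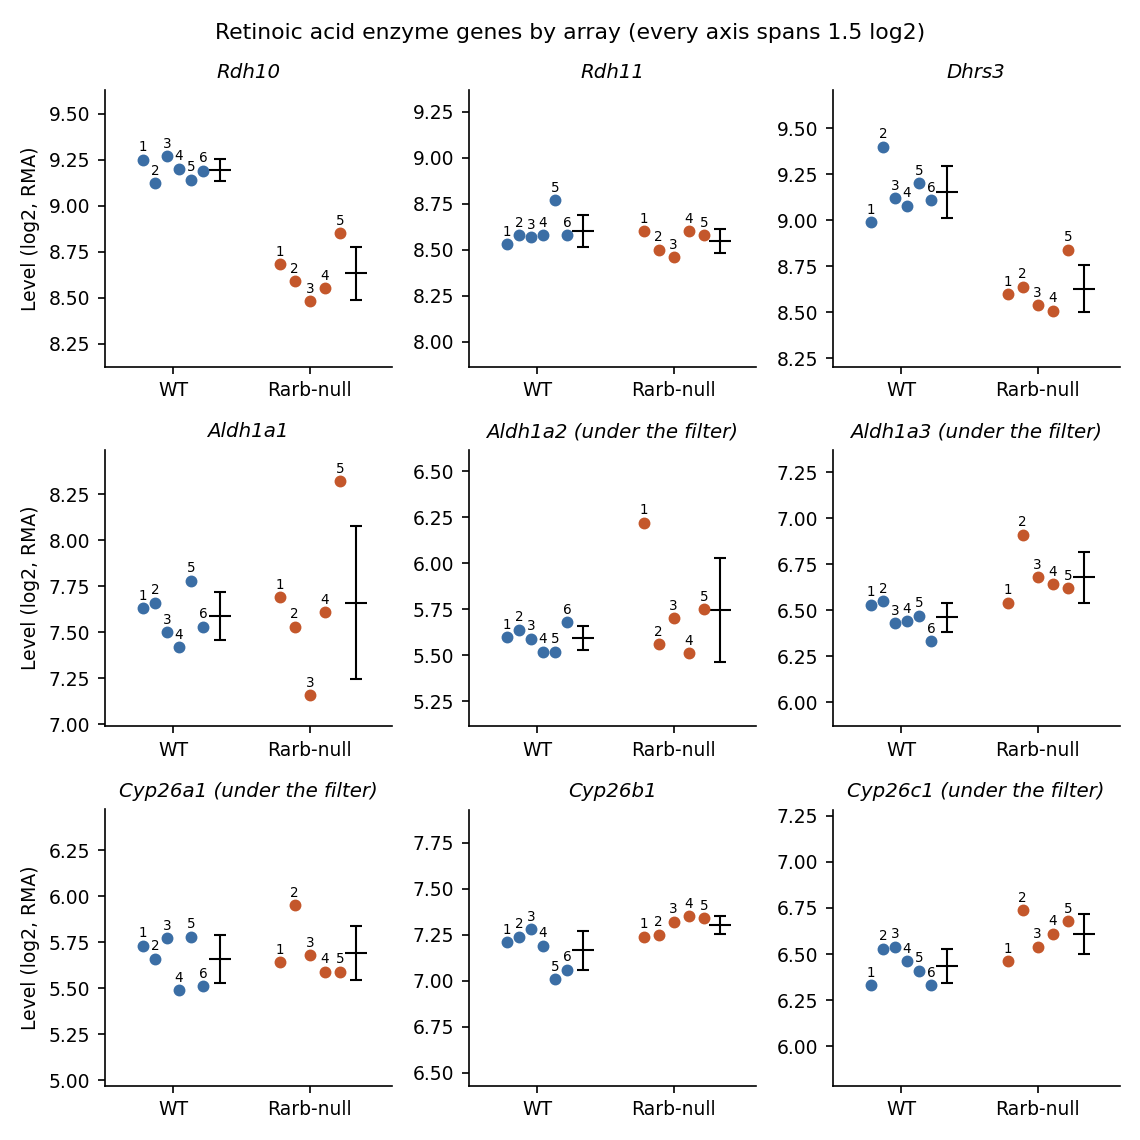
Level of each of the 9 genes in every array (log2 after RMA; each axis spans the same 1.5 log2 units but starts at a different level). Blue points are the 6 WT arrays and orange points the 5 Rarb-null arrays, numbered by replicate, and the bar beside each group is the mean with its SD. Rdh10 and Dhrs3 are the only genes of the 9 whose groups do not overlap, while Aldh1a1 spans 7.16 to 8.32 among the Rarb-null arrays alone.

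Rdh10 encodes the retinol dehydrogenase that supplies most retinaldehyde in the embryo. In WT replicates 1 to 6 it read 9.25, 9.12, 9.27, 9.20, 9.14 and 9.19, and in Rarb-null replicates 1 to 5 it read 8.68, 8.59, 8.48, 8.55 and 8.85. The WT arrays lay within 0.15 of each other, and the highest null array, replicate 5, was still below the lowest WT array. The means were 9.19 ± 0.060 (SD, n = 6) and 8.63 ± 0.14 (n = 5), with a difference of -0.56 (SE 0.058, 95% interval -0.69 to -0.44, limma Benjamini-Hochberg adjusted p = 2.19e-05). By p this was the 113th of the 11963 genes, and 87 of the 1436 falls were at least as large as that of Rdh10. Leaving out any 1 array gave -0.62 to -0.53, the former without Rarb-null replicate 5. Adjusted for the cortical markers the difference was -0.61, and adjusted for the oligodendrocyte markers -0.54, both past the threshold.

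Dhrs3 encodes a reductase that returns retinaldehyde to retinol and so limits how much retinoic acid is made. Its WT arrays read 8.99, 9.40, 9.12, 9.08, 9.20 and 9.11, and its Rarb-null arrays 8.60, 8.64, 8.54, 8.51 and 8.84. WT replicate 2 was the highest WT array and Rarb-null replicate 5 again the highest null array, 0.15 below the lowest WT array. The means were 9.15 ± 0.14 (n = 6) and 8.63 ± 0.13 (n = 5), with a difference of -0.52 (SE 0.072, 95% interval -0.68 to -0.37, limma Benjamini-Hochberg adjusted p = 0.000236). The fall of Dhrs3 ran from -0.58 to -0.47 when any 1 array was left out, the smallest without WT replicate 2. Adjusted for the cortical markers it was -0.74, and for the oligodendrocyte markers -0.55. The interval of each of the 2 genes contained the estimate of the other, so the data did not separate the sizes of the 2 falls. In these bulk punches, fewer cells that express a gene and less RNA of it per cell cannot be told apart.

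The genes whose centred profile over the 11 arrays lay nearest to that of Rdh10 were Slc25a33 (root mean square difference 0.069 log2, against a range of 0.79 for Rdh10 itself), Kcnh1 (0.076) and Dck (0.078). They fell by 0.55, 0.53 and 0.47. For Dhrs3 the nearest were Astn2 (0.084), Islr2 (0.096) and Tbc1d20 (0.0995), which fell by 0.49, 0.56 and 0.51. The measure is a description over 11 arrays, and since most of each profile is the step between genotypes, it mainly finds genes with a fall of like size. Neither of the 2 enzymes was among the nearest 3 of the other.

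Rdh11, which encodes an NADP-dependent retinaldehyde reductase found in many tissues, did not pass the test. The WT arrays read 8.53, 8.58, 8.57, 8.58, 8.77 and 8.58 and the Rarb-null arrays 8.60, 8.50, 8.46, 8.60 and 8.58. Of the WT arrays, replicate 5 stood above the rest, and the ranges overlapped. The difference was -0.05 (SE 0.046, 95% interval -0.15 to 0.05, limma Benjamini-Hochberg adjusted p = 0.435), and without WT replicate 5 it was -0.02. The interval leaves room for a fall of 0.15, well short of those of Rdh10 and Dhrs3.

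**Figure D2:**
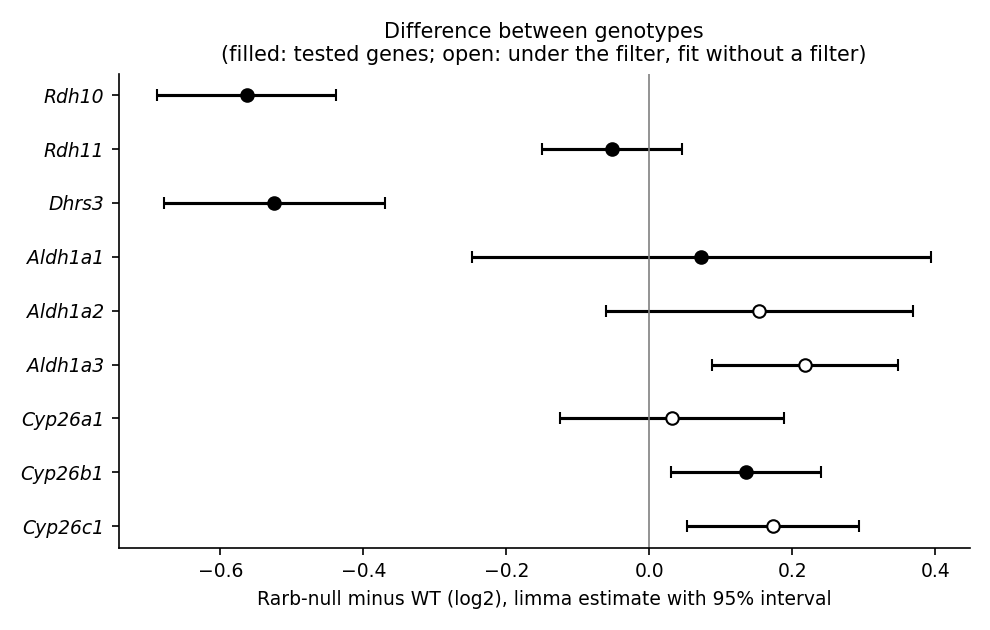
Rarb-null minus WT difference of the 9 genes (log2, horizontal axis), as the limma estimate with its 95% interval. Filled points are the 5 genes that passed the filter on dim genes and open points the 4 under it, from the fit without a filter. Rdh10 (-0.56) and Dhrs3 (-0.52) stand apart on the lower side, and the widest interval is that of Aldh1a1, from -0.25 to 0.39.

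The ALDH1A enzymes, which make retinoic acid from retinaldehyde, were read at lower values, and none of the 3 fell. Aldh1a1, an enzyme gene known from midbrain dopamine neurons among other cells, was the only one of them above the filter. Its WT arrays read 7.63, 7.66, 7.50, 7.42, 7.78 and 7.53 and its Rarb-null arrays 7.69, 7.53, 7.16, 7.61 and 8.32. The null arrays thus held both the lowest and the highest value of the gene, with an SD of 0.42 against 0.13 in WT; the median SD among tested genes was 0.07 in each genotype. The difference was 0.07 (SE 0.15, 95% interval -0.25 to 0.39, limma Benjamini-Hochberg adjusted p = 0.759), an interval that reaches a 1.31-fold increase and a 1.19-fold decrease, and its sign depended on 1 array: without Rarb-null replicate 5 it was -0.09 (adjusted p = 0.537).

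Rarb-null replicate 5, the array with the highest Aldh1a1, also had the highest cortical marker level, 9.35, against 8.32 to 9.01 in the other 10 arrays. Rarb-null replicate 3, with the lowest Aldh1a1, had a cortical marker level of 8.94, within the range of the other null arrays. Adjusted for the cortical markers the Aldh1a1 difference was -0.34 (adjusted p = 0.207). Of 8 midbrain dopamine neuron markers all were measured and 5 tested, with 1 rise (Th, 0.18) and 0 falls. Their mean level was 7.28 to 7.39 in WT and 7.42 to 7.64 in Rarb-null arrays, also highest in Rarb-null replicate 5. Nr4a2 had the largest difference of the 8 (0.66) and did not pass (limma adjusted p = 0.054). Ddc alone was lower (-0.07), and the markers not tested lay under the filter. The ranges of the mean did not overlap between genotypes. In the fit without a filter, where 12.6% of 19938 genes passed, Slc18a2 passed (0.20, limma adjusted p = 0.0295). Th did not pass in that fit (limma adjusted p = 0.0508).

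Aldh1a2, whose product makes most of the embryo's retinoic acid and is found in the meninges of the adult brain, read 5.60, 5.64, 5.59, 5.52, 5.52 and 5.68 in WT and 6.22, 5.56, 5.70, 5.51 and 5.75 in Rarb-null arrays. Its high value came from Rarb-null replicate 1, and the other arrays of both genotypes spanned 5.51 to 5.75. Without a filter the difference was 0.15 (SE 0.10, 95% interval -0.06 to 0.37, limma Benjamini-Hochberg adjusted p = 0.304), and without that array it was 0.04. The same array had the highest meningeal fibroblast marker level, 7.23 against 6.84 to 7.02 in the other 10 arrays. All 12 markers were measured and 8 tested, with 2 rises (Col1a1, 0.15, and Col1a2, 0.14) and 0 falls.

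**Figure D3:**
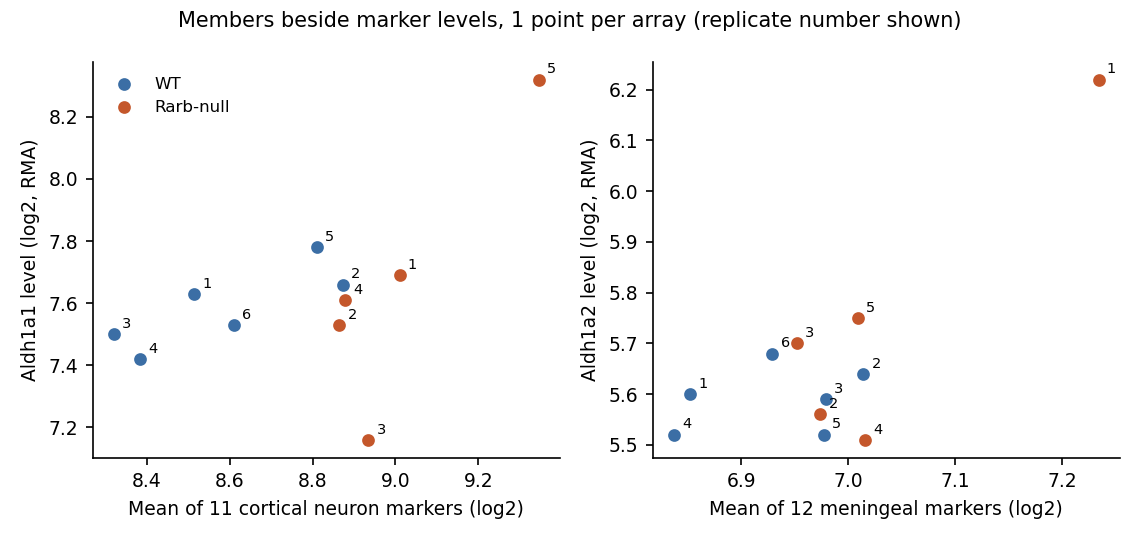
Left, Aldh1a1 level against the mean of 11 cortical neuron markers; right, Aldh1a2 level against the mean of 12 meningeal fibroblast markers (all log2; 1 point per array, numbered by replicate; blue WT, orange Rarb-null). Rarb-null replicate 5 (9.35, 8.32) and Rarb-null replicate 1 (7.23, 6.22) stand alone at the upper right of their panels. Rarb-null replicate 3 has the lowest Aldh1a1, at a cortical marker level (8.94) above every WT array and within the range of the other null arrays.

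Aldh1a3, the third enzyme of this step, lay under the filter and read higher in Rarb-null arrays. It read 6.53, 6.55, 6.43, 6.44, 6.47 and 6.33 in WT and 6.54, 6.91, 6.68, 6.64 and 6.62 in Rarb-null arrays. The groups touched at a single point, where Rarb-null replicate 1 lay just below WT replicate 2, and Rarb-null replicate 2 was the highest array. The difference was 0.22 (SE 0.061, 95% interval 0.09 to 0.35, limma Benjamini-Hochberg adjusted p = 0.0336 without a filter, where 12.6% of 19938 genes passed). Each of 6 arrays carried that call, which was lost on leaving out Rarb-null replicate 2 or 3 or any WT replicate from 3 to 6 (0.16 to 0.22, adjusted p 0.0525 to 0.0713). Adjusted for the cortical markers the difference was 0.24 (adjusted p = 0.178), and for the oligodendrocyte markers 0.28 (adjusted p = 0.0923), neither past the threshold. Genes under the filter as a whole stood slightly higher in Rarb-null arrays, with a median difference of 0.06, quartiles of 0.01 and 0.12, and 80.1% of the 7975 genes above 0, against 42.8% of tested genes; the shift of Aldh1a3 was beyond the upper quartile.

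Of the CYP26 hydroxylases, which clear retinoic acid, Cyp26b1 alone passed the filter. It is the family member best known from adult brain neurons. The WT arrays read 7.21, 7.24, 7.28, 7.19, 7.01 and 7.06 and the Rarb-null arrays 7.24, 7.25, 7.32, 7.35 and 7.34. The null arrays were the tighter group and lay at or above the upper part of the WT range, with 3 of the 5 above every WT array and the other two inside that range. The difference was 0.14 (SE 0.049, 95% interval 0.03 to 0.24, limma unadjusted p = 0.0159, Benjamini-Hochberg adjusted p = 0.0674), short of the threshold. The call was made with arrays centred (0.18, adjusted p = 0.0285) and without WT replicate 3 (0.16, adjusted p = 0.0388). The difference was smaller with quantile normalisation repeated (0.09, adjusted p = 0.165) and when adjusted for the oligodendrocyte markers (0.06, adjusted p = 0.608), and it was 0.18 when adjusted for the cortical markers (adjusted p = 0.141).

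Cyp26a1, the hydroxylase gene whose window holds the DR5 element printed above, had a mean level at the 19.6th percentile of all genes. Its WT arrays read 5.73, 5.66, 5.77, 5.49, 5.78 and 5.51 and its Rarb-null arrays 5.64, 5.95, 5.68, 5.59 and 5.59. The ranges overlapped and 1 null array, replicate 2, was above all others. Without a filter the difference was 0.03 (SE 0.073, 95% interval -0.13 to 0.19, limma Benjamini-Hochberg adjusted p = 0.792), and without that array it was -0.03. Signal over background was not measured, so these values do not show whether the gene is transcribed.

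Cyp26c1, which lies next to Cyp26a1 in the RefSeq gene order and encodes a hydroxylase with a preference for 9-cis retinoic acid, read 6.33, 6.53, 6.54, 6.46, 6.41 and 6.33 in WT and 6.46, 6.74, 6.54, 6.61 and 6.68 in Rarb-null arrays. Of the 5 null arrays 4 lay above every WT array, replicate 3 by less than the rounding shows. The difference was 0.17 (SE 0.056, 95% interval 0.05 to 0.29, limma Benjamini-Hochberg adjusted p = 0.0582 without a filter). It passed the threshold on leaving out Rarb-null replicate 1 or the second or the third WT replicate (0.19 to 0.21, adjusted p 0.0266 to 0.0452). With any other array left out it did not pass (adjusted p up to 0.138). Adjusted for the cortical markers the difference was 0.17 (adjusted p = 0.29), and for the oligodendrocyte markers 0.13 (adjusted p = 0.38). Genes under the filter as a whole had a median difference of 0.06 and an upper quartile of 0.12. Rarb-null replicate 2 was the highest array for Cyp26a1, Cyp26c1 and Aldh1a3 alike.

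**Figure D4:**
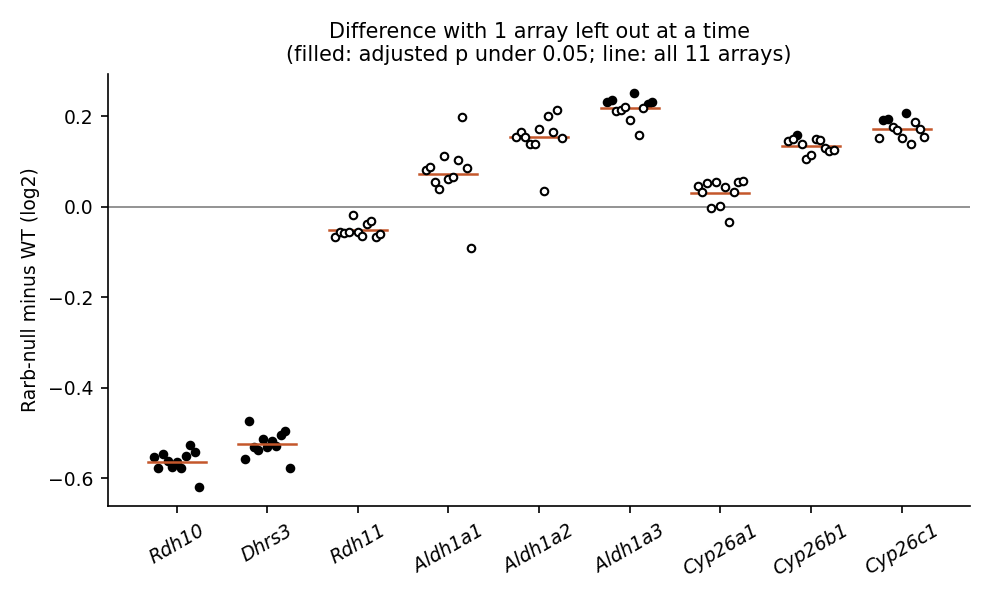
Rarb-null minus WT difference (log2, vertical axis) of each of the 9 genes when 1 of the 11 arrays was left out, with 11 points per gene; the orange line is the value with all arrays. Filled points had an adjusted p under 0.05 (Aldh1a2, Aldh1a3, Cyp26a1 and Cyp26c1 from fits without a filter). All 11 points are filled for Rdh10 and Dhrs3, 5 for Aldh1a3, 3 for Cyp26c1 and 1 for Cyp26b1, and the points of Aldh1a1 and Cyp26a1 fall on both sides of 0.

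The wider pathway moved in both directions. Of 50 other genes of retinoid metabolism, transport, reception and response, with Rarb set aside, 47 were measured and 22 tested; 4 rose, 4 fell and 14 did not pass. Their 8 calls among 22 stand beside the 19.6% of all tested genes. Among the other enzymes, 1 of 8 tested genes fell and 1 rose: Dhrs4, a retinal reductase of the same short-chain family as Dhrs3, fell by 0.22 (SE 0.047, limma Benjamini-Hochberg adjusted p = 0.00687), and Rdh13, a mitochondrial family member, rose by 0.10 (adjusted p = 0.0493). Dhrs4 kept its call whichever array was left out (-0.24 to -0.17). The call of Rdh13 held on leaving out Rarb-null replicate 1 or 4 and was lost on leaving out each of the other 9 arrays (0.09 to 0.11, adjusted p 0.0515 to 0.125). With the replicate number as a block Rdh13 gave 0.11 (adjusted p = 0.0818). The remaining 20 of 28 measured enzymes lay under the filter, among them Lrat and Rpe65, which store retinol as esters and release it again in other tissues. Of these 20, only Rdh19 passed in the fit without a filter (0.26, limma adjusted p = 0.00549), and its genotypes did not overlap. In that fit 12.6% of 19938 genes passed, and 7.87% had genotypes without overlap.

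Around the enzymes, the retinol transporter gene Stra6 fell by 0.93 (SE 0.082) and the gene of the fatty acid and retinoic acid-binding protein Fabp5 by 0.43 (SE 0.041), while Crabp1 (0.59) and Rbp4 (0.50), which encode a retinoic acid-binding and a retinol-carrying protein, rose. The 5 tested genes of transport and binding thus gave 2 rises and 2 falls, and Rlbp1 (0.07) did not pass. Their median difference, 0.07 against -0.02 over all tested genes, is the value of Rlbp1 alone. Among the genes of this list under the filter, only Ttr passed without a filter (0.25, limma adjusted p = 0.038), where 12.6% of 19938 genes passed. The genotypes overlapped for Ttr. Of the receptors other than Rarb, Rxrg fell by 0.90, and Rara, Rarg, Rxra and Rxrb did not pass the test. Among known retinoic acid-responsive genes outside the 9, with Rarb and Stra6 named already, Nrip1, the gene of a nuclear receptor corepressor, rose by 0.12 (SE 0.038, adjusted p = 0.0416), a call that held when the array left out was the fourth Rarb-null or the second or the sixth WT replicate and was lost on leaving out each of the other 8 arrays (0.09 to 0.13, adjusted p 0.0527 to 0.0886). Adjusted for the cortical markers Nrip1 gave 0.04 (adjusted p = 0.63) and Rdh13 0.07 (adjusted p = 0.436). Tgm2 (0.14), Meis1 (-0.10) and Meis2 (-0.06) did not pass.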

How the data were processed

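The authors deposited log2 values made by RMA from 11 arrays, per the labels, which state a log scale; base 2 was inferred from the range. RMA corrects background, equalises array distributions and combines probes, and compresses folds of dim probe sets. Its version and the annotation build are not stated in the labels. RNA (100 ng) came from 0.5 mm punches of 3 sections of 300 µm per brain. Groups follow the sample titles; the extraction protocol gives their sizes the other way round. Array medians were 7.02 to 7.06 (WT) and 7.08 to 7.11 (Rarb-null), correlations between arrays 0.989 to 0.997, and no array was repeated. Precision is limited by how few arrays there are.

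Of 35556 probe sets, the 21789 with 1 symbol in the platform annotation were used, and the one of highest mean stood for its gene. Genes above the 40th percentile of means were tested with limma 3.58.1 in R 4.3.3 (lmFit, eBayes, two-sided, no covariates), with Benjamini-Hochberg adjustment over 11963 genes; rose, fell or called means an adjusted p under 0.05. In simulated arrays for this comparison and number of genes, 98.5% of genes changed by 0.5 were recovered, 74.6% of those changed by 0.25, and 7 of 11763 unchanged genes were called. The simulation drew the noise of each gene independently and changed far fewer genes than the 19.6% called in the data. Its rates therefore need not hold for the real arrays.

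The members and the textbook gene lists were chosen with earlier results of these data known. Named genes are the 9 members, Rarb, called genes of the retinoid lists (up to 4 each by p) and the 3 nearest profiles of each called member; other names were chosen after their values were seen. Alternatives were no filter, a 60th percentile filter, centred arrays, repeated quantile normalisation, a trended robust variance, array weights, mean of probe sets, marker covariates, a replicate block and each array left out. Settings without a filter for the 4 dim members, and a fit without the arrays of lowest and highest cortical marker level, were chosen after seeing the data.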

Additional observations from a re-analysis of the deposited data

Results flagged for a closer look

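Among 20 groups of values examined (the 9 enzyme genes and Rarb in each genotype), 2 held an array far from the rest of its group; chance alone picks out about 5% of groups by this criterion. For Rdh11 it was WT replicate 5, at 8.77, where the remaining WT arrays spanned 8.53 to 8.58; without it the genotype difference was -0.02. For Cyp26a1 it was Rarb-null replicate 2, at 5.95, where the remaining null arrays spanned 5.59 to 5.68.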

How the results depend on the processing

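The falls of Rdh10 and Dhrs3 kept their direction and their call under each of 11 alternatives and with each of 11 arrays left out. The changes of filter, the trended robust variance and the mean of probe sets cannot move these estimates, so they bear only on the call. The 11 include the fit without the arrays of lowest and highest cortical marker level. Over the alternatives Rdh10 ran from -0.61 to -0.52 (adjusted p 5.7e-06 to 0.00192) and Dhrs3 from -0.74 to -0.48 (adjusted p 3.82e-05 to 0.00719). Member genes called numbered 2 or 3, and 2 to 3 with 1 array left out; the third was Cyp26b1 or, without a filter, Aldh1a3, whose calls are given with those genes. Other retinoid genes called numbered 6 to 10 over the alternatives and 6 to 8 with 1 array left out, against 8. Rarb stayed between -1.89 and -1.76 over the alternatives. Genes called overall numbered 1027 when adjusted for the cortical and 810 for the oligodendrocyte markers, and 1547 (without Rarb-null replicate 3) to 2576 with 1 array left out, against 2341; the cause was not tested. Deviations of same-numbered WT and Rarb-null arrays correlated at 0.056 to 0.43, over the limit of 0.1 in 4 of 5 pairs, and 6 of 10 arrays correlated best with their own number. These values are a hint of pairing from the data. Since the labels state none and 1 pair was under the limit, the numbers were not taken as pairs. WT replicate 6 has no partner of its number, so it does not enter the genotype difference of the replicate block fit. With the replicate block 2872 genes were called, 2 members, 9 other retinoid genes, and Rarb at -1.86; Rdh13 was not called (0.11, adjusted p = 0.0818); Rdh10 was -0.56 and Dhrs3 -0.53, and without a filter Cyp26c1 passed (0.15, adjusted p = 0.0475). Aldh1a1 and Cyp26a1 had no stable sign. Low levels limit what can be said of the 4 members under the filter, since signal over background was not measured.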
